A study of Mus musculus with 8 samples.

Results

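Binding of the transcription factor NF-YA near genes of the extracellular matrix and of cell adhesion was examined in muscle stem cells (MuSCs) that contained or lacked TAF4A. The genes were chosen by symbol alone and comprised collagens, laminins and nidogens, integrins, fibronectin with fibrillins and fibulins, ADAM and ADAMTS proteases, matrix metalloproteinases (MMPs) and their inhibitors (TIMPs), thrombospondins and other matricellular proteins, galectins, glypicans and sulfatases, and the enzymes and the chaperone that mature collagen. Of 7196 NF-YA peaks, 28 were assigned to a protein-coding gene of this kind, and they belonged to 20 genes out of 3978 with an assigned peak. The rule used neither the signal nor the position of a peak.

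NF-YA was mapped by CUT&RUN, which uses an antibody to bring a nuclease to the bound protein and sequences the DNA fragments released there. The cells came from adult C57BL/6 mice of both sexes and were activated and proliferating in culture. The control libraries are labelled WT. The paper's list of animals gives *Taf4a* fl/fl alleles for controls and for Taf4asKO mice, but it also names wild type mice. In Taf4asKO mice the tamoxifen-inducible Pax7CreERT, which is active in MuSCs, deleted the floxed segment, whereas control littermates kept TAF4A. Each genotype had 2 NF-YA libraries and 2 libraries with an unspecific IgG, which the authors used to call peaks and which were not analysed here. The sources used here do not say whether the 2 libraries of a genotype came from separate mice or cultures, so that p-values measure only the spread between these libraries. MuSCs had been sorted on integrin alpha 7 or a Pax7 reporter, and since NF-YA binding gives no expression level, the cell type could not be checked with marker genes.

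The extracellular matrix surrounds the MuSC in its niche between the muscle fibre and the basal lamina, a sheet of laminins, nidogens and type IV collagen. Stem cells hold on to it through integrins and other receptors, and they remodel it when they become activated. NF-Y is a trimer whose NF-YA subunit reads the CCAAT box, a promoter element that usually lies shortly upstream of the transcription start, and TAF4A is a subunit of the general factor TFIID.

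Sequences under selected peaks are given first, because they show the box that NF-Y recognises. Promoter and remote peaks both hold it, at different distances from the start. Peaks whose boxes lie in an exon, such as the strong *Sulf1* peak, are not printed. The sequences were read from the mouse genome build mm10 on the strand of the gene, 5′ to 3′, and capitals mark the pentamer CCAAT or its reverse complement. The first set holds the 4 peaks with a box shortly upstream of the start, *Lgals1* (chr15:78926399-78926519, plus strand), *Nid2* (chr14:19751163-19751264, plus strand, ending before the first exon), *Adamts17* (chr7:66839561-66839681, plus strand) and *Col5a3* (chr9:20815127-20815247, minus strand).
Lgals1: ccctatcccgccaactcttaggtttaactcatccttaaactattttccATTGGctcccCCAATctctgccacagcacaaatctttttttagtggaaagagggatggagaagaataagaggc
Nid2: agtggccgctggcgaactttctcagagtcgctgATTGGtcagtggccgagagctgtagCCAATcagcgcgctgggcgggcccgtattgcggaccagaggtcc
Adamts17: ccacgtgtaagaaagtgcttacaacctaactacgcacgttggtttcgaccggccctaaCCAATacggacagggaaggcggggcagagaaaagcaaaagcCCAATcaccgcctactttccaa
Col5a3: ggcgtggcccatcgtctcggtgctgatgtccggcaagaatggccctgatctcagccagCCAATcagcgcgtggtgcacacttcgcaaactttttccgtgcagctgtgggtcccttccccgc

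The second set holds peaks with clear signal farther away from the annotated start of the gene, namely *Serpinh1* (chr7:99360207-99360327, minus strand), *Fbln2* (chr6:91202828-91202948, plus strand), *Sparc* (chr11:55423957-55424077, minus strand) and *Col5a1* (chr2:27888895-27889015, plus strand), followed by the 2 peaks with the lowest p among those with more signal in Taf4asKO, *Adamts14* (chr10:61272276-61272396, minus strand) and *Adam5* (chr8:24829767-24829887, minus strand).
Serpinh1: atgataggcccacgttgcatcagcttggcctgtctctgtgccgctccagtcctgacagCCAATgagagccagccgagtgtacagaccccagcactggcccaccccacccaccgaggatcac
Fbln2: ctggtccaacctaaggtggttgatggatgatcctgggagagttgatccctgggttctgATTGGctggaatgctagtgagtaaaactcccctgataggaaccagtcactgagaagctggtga
Sparc: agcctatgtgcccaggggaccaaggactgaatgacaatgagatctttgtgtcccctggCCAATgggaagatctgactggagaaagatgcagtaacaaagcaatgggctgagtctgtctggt
Col5a1: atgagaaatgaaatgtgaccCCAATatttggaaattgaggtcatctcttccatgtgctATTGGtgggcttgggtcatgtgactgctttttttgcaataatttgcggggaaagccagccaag
Adamts14: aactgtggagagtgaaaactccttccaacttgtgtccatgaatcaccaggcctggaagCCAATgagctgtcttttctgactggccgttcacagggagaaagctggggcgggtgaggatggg
Adam5: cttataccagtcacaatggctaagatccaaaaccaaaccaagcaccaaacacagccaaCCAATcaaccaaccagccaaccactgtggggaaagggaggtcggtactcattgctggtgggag

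The boxes differed in number, strand and spacing. At *Lgals1*, an inverted box and a box on the strand of the gene were centred 276 and 266 bases upstream of the start, only 10 bases apart. *Nid2* had the same arrangement closer to the start, at 67 and 42 bases upstream and 25 bases apart. In *Adamts17* both boxes lay on the strand of the gene, 114 and 73 bases upstream, and *Col5a3* had 1 box at 120 bases upstream. The intronic *Col5a1* peak held 2 boxes on opposite strands at a spacing of 38 bases. In their central 200 bases *Serpinh1*, *Fbln2*, *Sparc* and *Adamts14* had 1 box each, and the whole *Serpinh1* peak had 2. *Adam5* had 2 boxes 68 bases apart, of which the printed stretch shows 1, and 79.2% of its peak is repeat-masked in the genome file. Of the 28 peaks 2 were masked over more than 50% of their length (7.14%, 1.98% to 22.6%), beside 1.79% of the other coding peaks.

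Across the 28 peaks, CCAAT on either strand was found in the central 200 bases of 19 (67.9%, 95% Wilson interval 49.3% to 82.1%), compared with 83.1% of the 3809 other peaks of protein-coding genes (81.9% to 84.2%). In windows of 200 bases placed 1000 bases to either side it occurred in 12 of 56 (21.4%, 12.7% to 33.8%). The 29 boxes were split between the strands, with 14 on the strand of the gene and 15 on the opposite strand. A box was more frequent at higher signal. Among the 21 peaks that averaged at least 10 normalised reads, 18 held a box (85.7%), close to the 85.3% of all other peaks of that strength, whereas 1 of the 7 weaker peaks did (14.3%, 2.57% to 51.3%), beside 65.5% of all other peaks below 10. Where a gene had 2 peaks, the stronger held a box and the weaker lacked it in 6 of 8 genes (*Adamtsl5*, *Col5a1*, *Col5a3*, *Serpinh1*, *Sparc* and *Thbs2*). Both *Lama5* peaks held a box, and neither of the *Lgals3* peaks did.

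**Figure D1:**
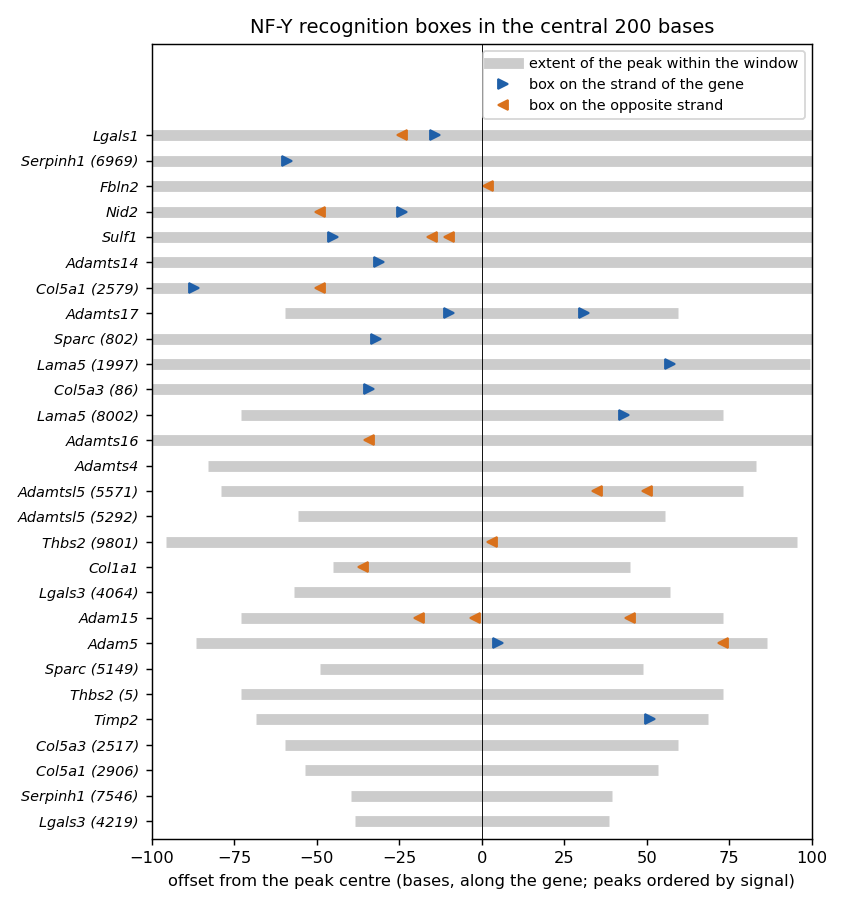
Offset of each CCAAT box from the peak centre in bases (x axis, along the gene) for the 28 peaks, ordered from the strongest at the top to the weakest; the number after a symbol is the distance from the gene start, triangles point along the strand of the box and grey bars show the extent of the peak. The 9 peaks without a box are mostly at the bottom, among the weak peaks.

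Other short motifs were searched in the same central windows on both strands. Of these only CCAATCA contains the pentamer, and a match only describes the letters. The AP-1 type motif TGACTCA was present in 6 peaks, those of *Col5a1* (2579 bases from the start), *Adamtsl5* (5571), *Col1a1*, *Timp2* and both *Lgals3* peaks, all beyond 1000 bases from the start. This was 30.0% of the 20 remote peaks (14.5% to 51.9%), beside 26.2% of the other remote peaks of coding genes. The GC box GGGCGG, the core of Sp1 sites, occurred in 21.4% of the 28 peaks and in 44.6% of the other coding peaks. Among peaks within 1000 bases of a start it was present in 3 of 8 against 56.7%, and among remote peaks in 15.0% against 19.3%. The longer form CCAATCA was found in 8 peaks (28.6%, against 35.2% of other coding peaks), including *Nid2*, *Adamts17*, *Col5a3* and *Fbln2* but not *Lgals1* or *Serpinh1*.

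Few of these genes carried an NF-YA peak, and most of the peaks were remote. Of 218 protein-coding genes in the annotation whose symbols fit the rule, 20 had an assigned peak (9.17%), compared with 3197 of all 22028 protein-coding genes (14.5%). None of the 27 integrin genes had an assigned peak, including *Itga7*, whose product serves to sort MuSCs, and *Itgb1*, the common beta chain of laminin and fibronectin receptors. A peak near such a gene but nearer to another one would not be counted here. Peaks were assigned to 3 of 44 collagen genes, 2 of 34 ADAM genes, 5 of 24 ADAMTS and ADAMTS-like genes, 1 of 26 MMP and TIMP genes, 1 of 12 collagen-modifying genes, 2 of 13 laminin and nidogen genes, 2 of 9 galectin genes and 2 of 7 matricellular genes. *Fn1*, *Lama2*, *Lamb1*, *Lamc1*, *Col4a1*, *Col4a2*, *Col6a1*, *Adam10*, *Adam17* and *P4ha1* had none. A missing peak describes the peak list and not the expression of the gene.

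RefSeq promoters on GRCm38 (250 bases before to 50 after the start) were matched by symbol for 145 of the 218 genes, and 51 of them held CCAAT on either strand (35.2%, 27.9% to 43.2%), beside 42.1% of all 16522 coding genes with a promoter sequence. Of the 13 matched genes with a peak, 6 had a box in this window (46.2%, 23.2% to 70.9%), whereas 74.4% of all coding genes with a peak did. The genes *Lgals1*, *Nid2*, *Sulf1*, *Adamts4*, *Adamts16*, *Adam5* and *Col1a1* had a peak but no matched promoter sequence. They are missing from this share, although the *Nid2* boxes printed above lie shortly upstream of its start. *Col1a2*, *Col4a1*, *Lamb1*, *Adam10* and *Postn* were among the genes with a box but without an assigned peak.

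Peaks were centred within 1000 bases of the assigned start in 8 of 28 cases (28.6%, 15.3% to 47.1%), compared with 2578 of the 3809 other coding peaks (67.7%, 66.2% to 69.1%), intervals that do not overlap. The median distance was 3485 bases against 207 bases. The remote peaks lay in introns (*Col5a1*, *Col5a3*, *Adamts14*, *Adamts16*, *Timp2*, *Lgals3*), in an exon (*Adam15*) or in intergenic sequence upstream (*Serpinh1*, *Fbln2*, *Sparc*, *Col1a1*, *Thbs2*, *Adam5*). *Adamtsl5* had a peak in a coding exon and another in an intron, and *Lama5* had an intronic and an upstream peak. The assignment to a gene depends on the annotation used. The *Sulf1* peak lies 183 bases downstream of the outermost start but 72 bases upstream of another *Sulf1* transcript, the *Adam15* peak is 177 bases inside a shorter transcript, and the *Lgals3* peaks are 1998 and 1843 bases upstream of the transcript *Lgals3-201*. By GENCODE M21, 5 of the 28 peaks are nearer to the start of a gene that is not protein-coding than to the assigned start, namely the *Fbln2* and *Adamts16* peaks, both *Col5a1* peaks and the remote *Thbs2* peak.

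**Figure D2:**
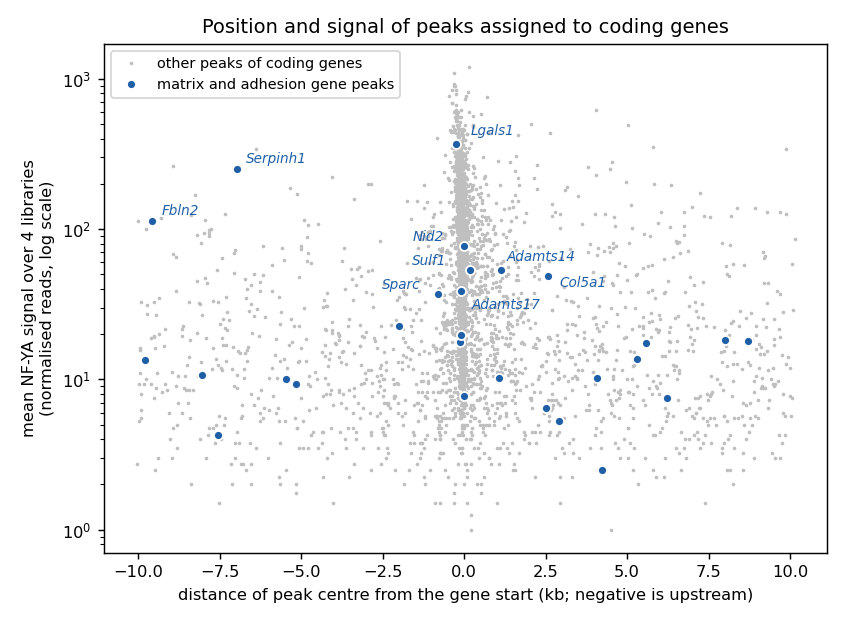
Mean NF-YA signal over the 4 libraries (y axis, normalised reads per peak, log scale) against the distance of the peak centre from the assigned gene start (x axis, kb, negative is upstream) for peaks of coding genes; grey points are other genes and blue points the 28 peaks. *Lgals1* sits within the column of promoter peaks, while *Serpinh1* and *Fbln2* are strong but lie 6969 and 9569 bases upstream.

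The libraries differed in the number of reads within peaks, which sets how firmly a peak can be compared. The values are reads per peak normalised between libraries, and 1 read was worth 1.04 and 3.26 units in control replicates 1 and 2. By this the control libraries held 351696 and 111269 reads in peaks, fewer than both Taf4asKO libraries (505241 reads in replicate 2 and, as 2 solutions could not be told apart, 684577 or 734552 in replicate 1). The uniquely mapped reads that the paper lists for these libraries differ far less. The number of reads in peaks and the genotype cannot be told apart. At the targeted gene *Taf4*, 7 peaks overlapping exons fell from 29 to 417 in control to 3 to 62 in Taf4asKO, and the called peak nearest the start (chr2:179975417-179975495, in the first exon) had 99 and 117 against 13 and 18 (log2 fold change -2.74, limma with Benjamini-Hochberg, adjusted p = 0.00112). None of these peaks lies in the exons that the study deleted, and a peak outside exons had 14 and 20 against 10 and 14 (adjusted p = 0.55), so that the signal there follows the labels but does not show the deletion itself.

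Of the 28 peaks, 21 had a mean of at least 10 and entered the comparison of genotypes, made with limma over all 4746 peaks of that strength. A single peak, *Lgals1*, passed the threshold of 0.05 for the adjusted p, and its signal was lower in Taf4asKO. Over all tested peaks 0.948% were called and 0.611% were called with lower signal in Taf4asKO (16 higher and 29 lower), a split that turned to 54 higher and 26 lower with centring on strong peaks and to 30 and 31 with equal totals. Without adjustment 3 of the 21 had a p under 0.05 (*Lgals1*, *Adamts14* and *Adam5*), where 17.9% of all tested peaks did. The values of the genotypes did not overlap in 16 of 21, with control above in 9 and Taf4asKO above in 7, beside 47.9% of all tested peaks. The median log2 fold change of the 21 peaks was -0.17 with a range from -0.86 to 1.63, and that of all tested peaks was -0.04. The minimum bears on this range and on the count of peaks without overlap, since 4 peaks with positive values (*Adam5*, *Adam15*, *Thbs2* and *Adamtsl5* at 5292 bases) had control means under 10 and reached it through Taf4asKO, and 2 with negative values (*Col1a1* and *Lgals3*) reached it through control. All tested peaks with means of 10 to 20 had a median of 0.16, and those with means of 20 to 50 a median of 0.07. Among all tested peaks with means of at least 50, the median was -0.16 and 1340 of 1880 were lower in Taf4asKO.

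**Figure D3:**
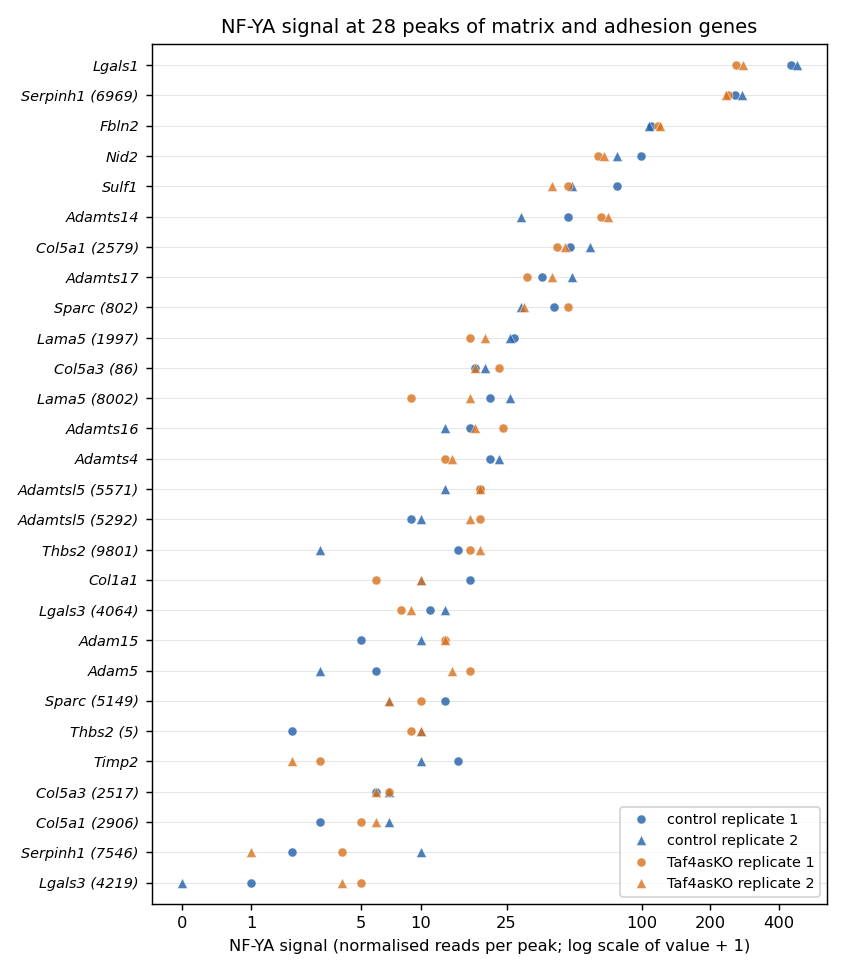
NF-YA signal (x axis, normalised reads per peak, drawn as value + 1 on a log scale) at the 28 peaks in each of the 4 libraries, blue for control and orange for Taf4asKO, with circles for replicate 1 and triangles for replicate 2; numbers after symbols give the distance from the gene start in bases. At *Lgals1* both Taf4asKO values (260 and 279) lie below both control values (454 and 479), while many of the weak peaks are mixed.

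*Lgals1* encodes galectin-1, a secreted lectin that binds beta-galactosides on laminin and integrins and is abundant in muscle. Its peak (chr15:78926143-78926802, centred 252 bases upstream of the start) was the strongest of the 28 and ranked 101 among all 7196 peaks. Control libraries gave 454 and 479 and Taf4asKO libraries 260 and 279, so that the groups were far apart relative to their spread (466.5 ± 17.7 against 269.5 ± 13.4, SD, n = 2 each). The signal in Taf4asKO was 0.58 of control, with a log2 fold change of -0.79 (95% interval -1.06 to -0.52, limma, adjusted p = 0.0214). The control values rested on 435 and 147 reads. Among 2339 tested promoter peaks of coding genes 6 were called, 5 of them lower in Taf4asKO, and *Lgals1* was 1 of these 5. The call was lost when any library was left out, which leaves a genotype with 1 library and assumes that it varies like the other (adjusted p = 0.187 to 0.739, log2 fold change -0.84 to -0.74), and when weak peaks were added to the fit (adjusted p = 0.263). Centring the libraries on strong peaks, which moved the median of all peaks from -0.04 to 0.18, gave -0.57.

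*Lgals3*, the gene of galectin-3, had 2 weak intronic peaks without a box. The first (4064 bases from the start) had 11 and 13 in control against 8 and 9 (log2 fold change -0.45 ± 0.45 SE, adjusted p = 0.618 by limma), and the second was near 0 throughout, with 1 and 0 against 5 and 4.

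At the basal lamina genes *Nid2* and *Lama5* every Taf4asKO value lay below every control value, a separation in either direction that 47.9% of all tested peaks showed, and none of the peaks was called. *Nid2* encodes nidogen-2, which links laminin to type IV collagen, and its peak at the start (chr14:19751063-19751431) had 99 and 78 in control against 64 and 68 in Taf4asKO. The log2 fold change was -0.41 (95% interval -0.86 to 0.04, adjusted p = 0.311 by limma). It was -0.24 without control replicate 1 and -0.58 without control replicate 2. *Lama5* encodes the laminin alpha 5 chain. Its upstream peak (chr2:180227757-180227955) had 27 and 26 against 17 and 20, and its intronic peak (chr2:180217784-180217929) 21 and 26 against 9 and 17. These gave log2 fold changes of -0.50 (-1.17 to 0.17) and -0.86 (-1.73 to 0.01), with adjusted p = 0.391 and 0.281 by limma. The intronic value was -0.44 without Taf4asKO replicate 1 and -1.29 without Taf4asKO replicate 2.

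Collagen genes showed no call. *Col5a1* and *Col5a3* encode chains of type V collagen, a minor fibrillar collagen that starts and regulates fibrils. The stronger *Col5a1* peak (chr2:27888882-27889125, in an intron) had 48 and 59 in control against 42 and 46 in Taf4asKO, which do not overlap but lie close (log2 fold change -0.27, -0.77 to 0.23). This log2 fold change was -0.42 without control replicate 1 and -0.12 without control replicate 2. The *Col5a3* promoter peak (chr9:20815019-20815286) had 18 and 20 against 23 and 18 (0.10, -0.62 to 0.81), and the sign of this difference depended on the library left out. *Col1a1*, a chain of type I collagen, had only a weak peak 8048 bases upstream with 17 and 10 against 6 and 10. The second peaks of *Col5a1* (3 and 7 against 5 and 6) and *Col5a3* (6 and 7 against 7 and 6) were below the minimum of 10 and were not tested.

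*Serpinh1* encodes HSP47, the chaperone that folds procollagen in the endoplasmic reticulum. Its remote peak (chr7:99359884-99360531, 6969 bases upstream) was the second strongest of the 28 and ranked 227 among all peaks. It had 257 and 277 in control against 240 and 235 in Taf4asKO. The groups did not overlap, yet the difference was small, with a log2 fold change of -0.17 (-0.46 to 0.13, adjusted p = 0.513 by limma), and its sign turned with centring on strong peaks (0.06). A second peak nearby had 2 and 10 against 4 and 1. *Fbln2*, the gene of fibulin-2, a glycoprotein of elastic fibres and basement membranes, had 110 and 108 in control against 118 and 120 in Taf4asKO, with the Taf4asKO values above (0.13, -0.24 to 0.49). *Timp2* encodes an inhibitor of MMPs, and its intronic peak had 15 and 10 against 3 and 2, but with a mean of 7.5 it was not tested and rested on 14 and 3 reads in the control libraries.

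ADAMTS enzymes are secreted proteases that cut proteoglycans and procollagens. None of the 6 peaks of ADAMTS and ADAMTS-like genes was called. At *Adamts14*, a procollagen N-propeptidase, the intronic peak (chr10:61272154-61272455) had 47 and 29 in control against 66 and 71 in Taf4asKO. Both Taf4asKO values were higher, and the log2 fold change was 0.87 (95% interval 0.29 to 1.46), but the adjusted p was 0.14 (limma). Under the alternatives that kept all libraries it stayed between 0.0521 and 0.31. The log2 fold change was 1.21 without control replicate 1 and 0.53 without control replicate 2. *Adamts4*, an aggrecanase, had 21 and 23 against 13 and 14 at its promoter (-0.67, -1.41 to 0.08), and this peak held no box. The *Adamts17* promoter peak had 36 and 49 against 31 and 40, which overlap (-0.25, -0.84 to 0.34), with log2 fold changes of -0.47 without control replicate 1 and -0.03 without control replicate 2. In *Adamts16* an intronic peak had 17 and 13 against 24 and 18. *Adamtsl5*, which encodes an ADAMTS-like protein without protease domain, had neighbouring peaks with 9 and 10 against 19 and 17 (0.86, -0.01 to 1.72) and with 19 and 13 against 19 and 19 (0.26, -0.53 to 1.04). The latter value was 0.51 without control replicate 1 and about 0 without control replicate 2.

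ADAM proteins are membrane-bound relatives of these enzymes. *Adam5* is a testis-expressed member of the family, and its remote peak (chr8:24829746-24829918), mostly repeat-masked as given above, had 6 and 3 in control against 17 and 14 in Taf4asKO. Its log2 fold change was the highest of the 21 peaks (1.63, 0.43 to 2.84), but its mean was exactly 10, so that it entered the test only through its Taf4asKO values, and the adjusted p was 0.163 (limma). The control values stood for 6 reads and 1 read. *Adam15*, an ADAM with protease and disintegrin domains, had 5 and 10 against 13 and 13 (0.79, -0.33 to 1.90), and its log2 fold change ranged from 0.35 to 1.22 with a library left out.

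The matricellular genes and *Sulf1* complete the list. SPARC is a collagen-binding glycoprotein, and the *Sparc* peak 802 bases upstream (chr11:55423860-55424109) had 41 and 29 in control against 47 and 30 in Taf4asKO, so that the spread within each genotype exceeded the difference between them (0.12, -0.55 to 0.79), and its sign turned in 2 of 12 alternatives. Its second peak was weaker, with 13 and 7 against 10 and 7. *Thbs2* encodes thrombospondin-2. Its peak 9801 bases upstream had 15 and 3 against 17 and 19 (log2 fold change 1.25, -0.13 to 2.63), and the log2 fold change was 2.25 without control replicate 1 and 0.25 without control replicate 2. The peak at the *Thbs2* start had 2 and 10 against 9 and 10. *Sulf1* encodes an extracellular sulfatase that trims heparan sulfate, and its promoter peak (chr1:12692327-12692592, 3 boxes) had 78 and 49 in control against 47 and 40 in Taf4asKO (-0.50, -1.09 to 0.08, adjusted p = 0.336 by limma), with log2 fold changes of -0.17 without control replicate 1 and -0.83 without control replicate 2.

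**Figure D4:**
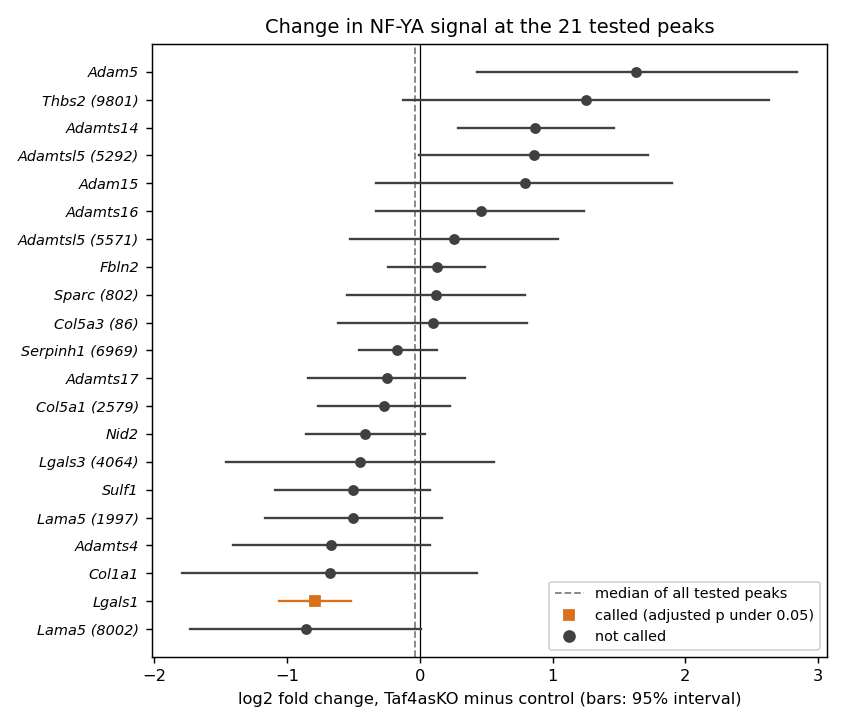
Log2 fold change of the NF-YA signal, Taf4asKO minus control (x axis), with its 95% interval from limma for the 21 tested peaks; numbers after symbols give the distance from the gene start in bases. The interval of *Lgals1* (-1.06 to -0.52) is narrow and clear of 0, and that of *Adamts14* (0.29 to 1.46) excludes 0 without adjustment for the number of peaks tested. *Adam5* reached the minimum only through its Taf4asKO values.

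**Figure D5:**
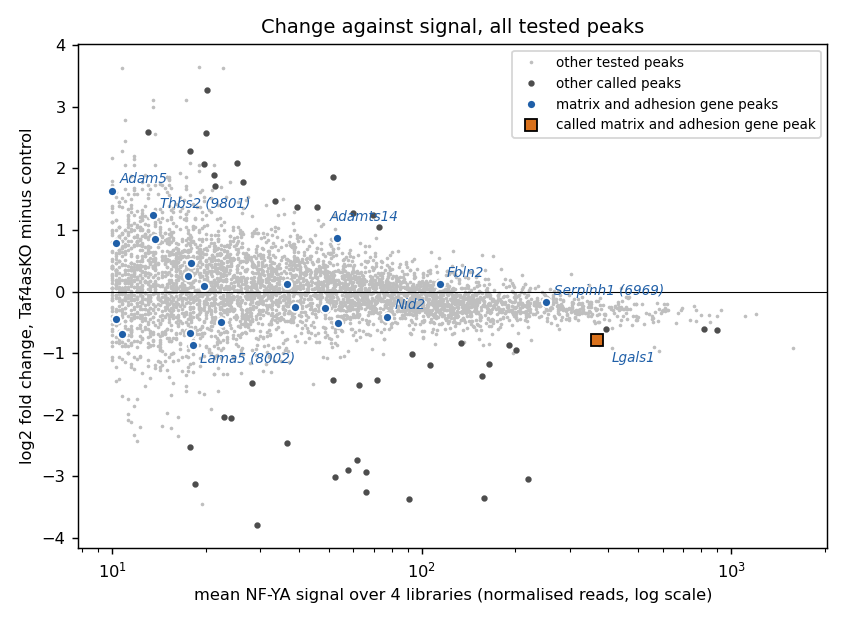
Log2 fold change, Taf4asKO minus control (y axis), against the mean signal over the 4 libraries (x axis, normalised reads, log scale) for all 4746 tested peaks; dark points are other calls, blue points the uncalled peaks of matrix and adhesion genes and the orange square *Lgals1*. The spread of the grey points narrows with signal, and *Lgals1* lies at its lower edge.

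In control replicate 2, 14 of the 21 tested peaks were covered by fewer than 10 reads. Changes were simulated at the reads per peak of these libraries, with an assumed extra spread that was not estimated from the data. A log2 change of 1 was called at 25 of 100 peaks, of which 95 entered the test. A log2 change of 2 was called at 83 of 100, of which 90 entered the test. These rates hold only for the assumed spread. By fold alone (mean above 10 and a ratio of group means beyond 2) none of the 20 peaks above that mean was gained or lost, beside 4.29% and 3.13% of all peaks above 10. *Adam5*, with a mean of exactly 10, and the remote *Thbs2* peak, with a ratio of exactly 2, lay on the limits, and both counted as gained with equal totals.

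Other genes of matrix and adhesion were drawn from a list of 104 that the rule does not cover, such as focal adhesion, dystroglycan and cadherin genes. Of these, 21 had an assigned peak, with 24 peaks in all, 13 of them within 1000 bases of the start (54.2%). None of the 14 tested peaks was called by limma, and 3 had an unadjusted p under 0.05, beside 0.948% and 17.9% of all tested peaks. The strongest was at *Vcl*, the gene of vinculin, which ties integrins and cadherins to actin, with 174 and 186 in control against 133 and 159 in Taf4asKO (log2 fold change -0.31 ± 0.16 SE, adjusted p = 0.336). Others among the strongest were *Ctnnd1* (p120 catenin, -0.11 ± 0.17), *Ppib* (cyclophilin B, a partner of collagen prolyl hydroxylation, -0.28 ± 0.26) and *Actn1* (alpha-actinin-1, -0.59 ± 0.24). These 4 peaks were within 1000 bases of a start and held at least 2 boxes each. Of the 14 tested peaks 6 had positive and 8 negative log2 fold changes, with a median of -0.10. The extremes, chosen after the values were seen, were *Cdh15*, which encodes M-cadherin of muscle stem cells and had 61 and 36 against 27 and 16 (-1.13 ± 0.34, adjusted p = 0.142 by limma), and *Dag1*, the gene of dystroglycan, with 28 and 23 against 28 and 50 (0.54 ± 0.32, adjusted p = 0.385 by limma).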

How the data were processed

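The authors trimmed the paired reads of 36 bases (Trimmomatic 0.39), aligned them to mm10 (STAR 2.7.11a), removed duplicates (Picard 3.1.1), called peaks against IgG with MACS and merged them; the versions are those in the submitters' processing notes, and the paper names others for some tools. The deposited score of each peak in each NF-YA library is the number of reads counted with featureCounts, which the authors normalised with DESeq2 (1.36.0) and rounded to whole numbers. Per their methods they assigned a peak to the nearest gene within 10000 bases of its start, and the assignments and distances were used as deposited, although other starts in GENCODE M21 were nearer for some peaks. Of 3978 assigned gene IDs 3951 had identical coordinates in GENCODE M21, which also gave the genes without a peak.

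The value of 1 read was inferred from the gaps between values, a step tested on simulated data (12 of 12 libraries solved). Since the rounding hides whole reads in Taf4asKO, no count model was used. The comparison used limma 3.58.1 (R 4.3.3, trend over the mean) on log2(score + 1) for peaks averaging at least 10, with Benjamini-Hochberg adjustment over all tested peaks and calls under 0.05. Adding 1 shrinks the fold changes of weak peaks. Because logs are averaged, a fold change can still exceed the ratio of group means, as at the remote *Thbs2* peak. The fit was tested on simulated data. Shares have 95% Wilson intervals, which cover counting error only. Python 3.11.15, pandas 2.3.3, scipy 1.17.1, statsmodels 0.14.6 and pysam 0.24.0 were used.

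The genes, lists and tests were chosen with earlier results of these data known. Peaks were named by rule, as calls, the 3 strongest of each family, the 6 largest increases and decreases without overlap, genes with 2 peaks and listed niche genes, and together this named all 28. From the list of other matrix and adhesion genes the strongest peaks were to be named, of which 1 is not reported here. Alternatives were a pseudocount of 5, no minimum, 3 other scalings, the replicate number as a block, a threshold of 0.1, weights from reads, leaving out each library, other fold rules and other windows.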

Additional observations from a re-analysis of the deposited data

How the results depend on the processing

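The number of calls over all peaks depended on the processing, while *Lgals1* was the only call among the 21 peaks under each alternative that made any call. Over all peaks there were 45 calls, 129 with equal medians, 80 centred on peaks averaging at least 100 (54 higher, 26 lower), 131 at a threshold of 0.1, 323 with weights from reads, and 0 with no minimum (1015 unadjusted p under 0.05) or with any library left out (range 0 to 0, with 227 to 1089 unadjusted p under 0.05). The member calls fell from 1 to 0 in these same fits, with no minimum (0) and with each library left out (0 to 0). Scaling to equal totals or on strong peaks moved the median of all peaks to 0.10 and 0.18, and that of the 21 peaks from -0.17 to -0.02 and 0.06. The fold rule gave 0 gained and 0 lost peaks, but 4 gained and 4 lost at a ratio of 1.5 (549 and 453 of 4689 over all peaks), 3 gained with equal totals (322 gained and 99 lost over all peaks), and 0 to 3 gained and 0 to 2 lost with a library left out (175 to 402 gained and 166 to 208 lost over all peaks). The share of peaks with CCAAT was 85.7% among those with a mean of at least 10. Same-numbered libraries of the genotypes deviated with a correlation of -0.09 over the tested peaks and 0.26 over those averaging at least 100, and with 2 pairs the numbers were not taken to pair them. With the replicate block there were 31 calls (3 higher, 28 lower), and the member count was 1. The causes of these moves were not tested.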
